A study of Homo sapiens with 4 samples.

Results

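The genes described here encode 10 factors of the m6A system, namely the writers METTL3, METTL14 and WTAP, the readers YTHDF1, YTHDF2, YTHDF3, YTHDC1 and YTHDC2, and the erasers ALKBH5 and FTO. They were chosen by name, and each is listed once among the 26490 genes of the deposited table. PAR-CLIP was performed in HEK293, a human embryonic kidney cell line, in which a stably integrated, tetracycline-inducible transgene expressed HA- and FLAG-tagged DHX36, a DEAH-box helicase that unwinds G-quadruplexes. Of the 4 samples, 2 came from cells with FH-DHX36 and 2 from cells with FH-DHX36-E335A, the helicase-dead mutant. In all of them the transgene was switched on by tetracycline at 500 ng per ml over 15 h, and cells were irradiated at 365 nm for 5 min and immunoprecipitated with the same FLAG antibody, and the cells had been fed 4-thiouridine, which crosslinks to the bound protein and is read as a T-to-C conversion. The endogenous DHX36 gene was not described as deleted in either line. The labels give isoform 2 for FH-DHX36 and isoform 1 for FH-DHX36-E335A, so that isoform and mutation cannot be told apart. An active helicase moves along its RNA, and the mutant was included as a form thought to stay where DHX36 acts, so that binding could be read from both.

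m6A is a methyl group on the adenosines of mRNA. It is placed in the nucleus by a complex in which METTL3 holds the catalytic site, METTL14 helps to bind the RNA and WTAP brings the complex to its targets. Proteins with a YTH domain read the mark, with YTHDF1, YTHDF2 and YTHDF3 in the cytoplasm, YTHDC1 in the nucleus and YTHDC2, which also carries a DExH helicase domain, known for its part in meiosis. ALKBH5 and FTO are dioxygenases that take the methyl group off again.

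For each gene the table gives 1 value per cell line for the number of clusters, the number of crosslinked reads, and NXPM, the crosslinked reads per 1000000 crosslinked reads of the PAR-CLIP (RPM) divided by mRNA abundance. Each is also split by annotation, with columns for both UTRs, the CDS and introns. A cluster is a stretch covered by overlapping reads that carry T-to-C conversions. The paper describes high-confidence sites that were reproducible, and a figure legend names the intersection of the replicates. Whether the deposited counts are limited to those sites is not given in the sources used here, which bears on all cluster and read counts. The replicates are not separated, so that no spread between replicates and no test between the cell lines could be computed, and the intervals given here cover counting error only. The table held 2160413 crosslinked reads in the FH-DHX36 columns and 8752127, 4.05 times as many, in those of the mutant, and no reads were listed on genes without a cluster.

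Of the 10 mRNAs, 9 carried an FH-DHX36-E335A cluster and 7 an FH-DHX36 cluster. In the whole table, 34.5% of genes had an FH-DHX36-E335A cluster, and 22.4% had an FH-DHX36 cluster. Among the 17911 identifiers placed on a protein-coding gene these shares were 48.1% and 31.2%. Together the members held 115 clusters and 9775 crosslinked reads with FH-DHX36-E335A, which is 1117 RPM, and 25 clusters and 1508 reads with FH-DHX36, which is 698 RPM. METTL3 and FTO were found with FH-DHX36-E335A alone, which is 2 of the 9 mRNAs found there, beside 37.9% of all genes found there. YTHDC1 was without a cluster in either PAR-CLIP.

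**Figure D1:**
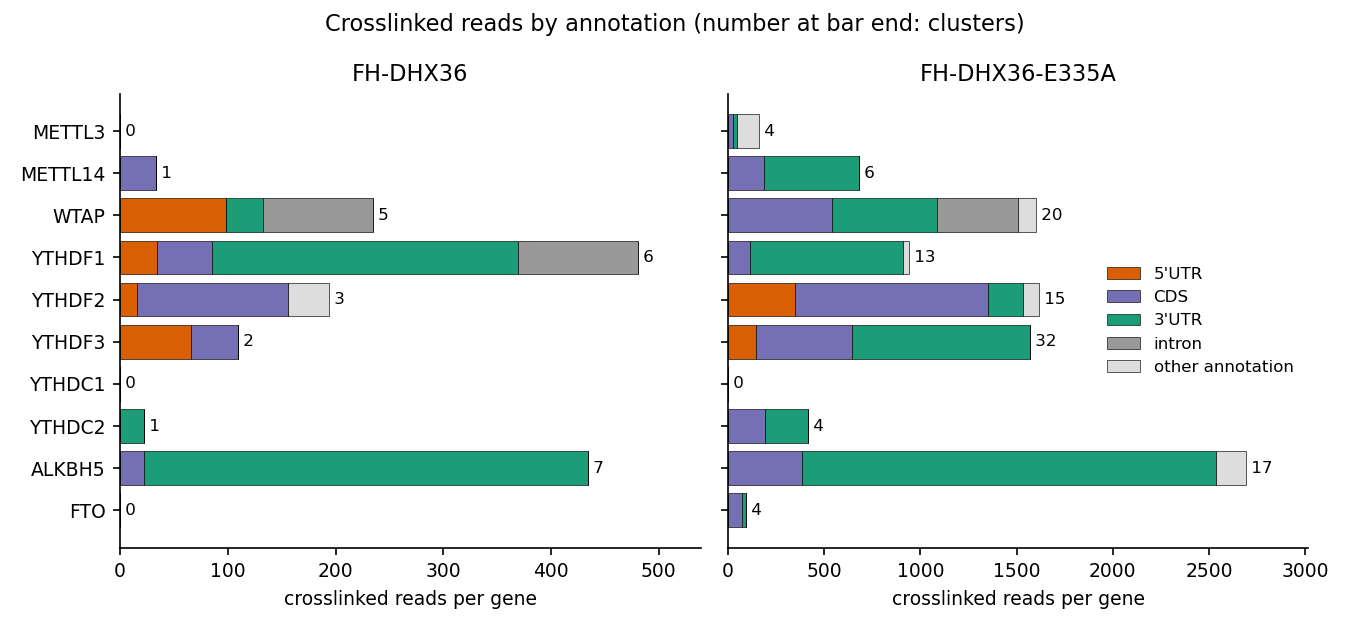
Crosslinked reads per gene (x axis, with a different scale in each panel) for the 10 m6A factor genes, stacked by annotation, in the FH-DHX36 (left) and FH-DHX36-E335A (right) PAR-CLIP, with the number of clusters at the end of each bar. ALKBH5 had the longest FH-DHX36-E335A bar with 2694 reads, mostly in the 3'UTR, and YTHDC1 had none in either panel.

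Among the writers, METTL14 and WTAP were found in both PAR-CLIPs and METTL3 in one. METTL3 lies on the minus strand of GRCh37 at chr14:21966282-21979482 in 11 exons, and its canonical 3'UTR is 120 nt long. The mutant had 161 reads in 4 clusters on it, whereas FH-DHX36 had no cluster. Of the 161 reads, the CDS held 26 and the 3'UTR 18, while 117, or 72.7%, belonged to 2 clusters outside the 5'UTR, CDS, 3'UTR and intron categories. Such other annotations held most of the reads on 12.6% of genes carrying an FH-DHX36-E335A cluster. At the share of reads seen with FH-DHX36-E335A, 39.7 reads would have been listed with FH-DHX36. Of 940 genes whose FH-DHX36-E335A read count was within 25% of that of METTL3, 45.3% had an FH-DHX36 cluster. The absence of METTL3 from the smaller data set was thus shared by many genes of the same read count.

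METTL14 (plus strand, chr4:119606547-119636585, 11 exons) has a 3'UTR of 5128 nt, 77.2% of its canonical transcript. It had 680 reads in 6 clusters with FH-DHX36-E335A, of which 492 were in the 3'UTR and 188 in the CDS, compared with 33 reads in a single CDS cluster with FH-DHX36. DHX36 is known to bind G-rich sequences that can fold into G-quadruplexes. Each canonical transcript was therefore scanned for 4 or more runs of at least 2 G, separated by 1 to 7 bases of any kind, on the sense strand. The paper also found short A/U-rich sequences enriched in the FH-DHX36-E335A clusters, and these were not scanned for here. All coordinates are on GRCh37 and all sequences are given on the sense strand. The METTL14 3'UTR held 4 such matches, all in exon 11, and the longest and a further one are shown because this region took most of the reads (runs of G in capitals, DNA letters, 5′ to 3′).
METTL14 3'UTR, exon 11, chr4:119636266-119636288: GGGGGaaaatgtGGaGGtctaGG
METTL14 3'UTR, exon 11, chr4:119633997-119634013: GGatGGGGattaGGaGG

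The table gives no cluster positions, so that no match here or elsewhere is tied to a cluster.

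WTAP (plus strand, chr6:160148538-160177351, 8 exons) had 1603 reads in 20 clusters with FH-DHX36-E335A, spread over the CDS with 538 reads, the 3'UTR with 549, introns with 419 and other annotations with 97. With FH-DHX36 it had 235 reads in 5 clusters, of which 98 were in the 5'UTR, 102 in introns, 35 in the 3'UTR and none in the CDS. WTAP was 1 of 2 members with intronic reads. Its 5'UTR carried reads with FH-DHX36 and none with FH-DHX36-E335A, despite the larger number of reads there. The canonical WTAP 5'UTR of 206 nt held 3 G-run matches, and the one short enough to print is shown for that difference. The longest coding transcript of WTAP has a 5'UTR of 1757 nt, so that the reads need not lie in the part scanned.
WTAP 5'UTR, exon 1, chr6:160148705-160148720: GGtGGcgccGGcgcGG

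The YTHDF paralogs differed in where their reads lay. With FH-DHX36-E335A, YTHDF1 (minus strand, chr20:61826781-61847483, 5 exons) had 941 reads in 13 clusters, YTHDF2 (plus strand, chr1:29063452-29096287, 5 exons) 1616 reads in 15 clusters, and YTHDF3 1571 reads in 32 clusters. YTHDF2 and YTHDF3 could not be told apart by counting error (95% Poisson intervals from 1538 to 1697 and from 1494 to 1651), and WTAP lay between them. On YTHDF1 the 3'UTR held 794 of 908 exonic reads, or 87.4% (95% Wilson interval from 85.1% to 89.4%). On YTHDF2 the CDS held 1003 reads, the 5'UTR 350 and the 3'UTR 182 of 1535 exonic reads, a 3'UTR share of 11.9% (10.3% to 13.6%). Thus YTHDF1 and YTHDF2 differed in this share beyond counting error. They had the highest and the lowest share of the members with FH-DHX36-E335A. The interval of YTHDF1 overlapped that of ALKBH5, with 84.9% (83.4% to 86.2%).

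With FH-DHX36, YTHDF1 had 481 reads in 6 clusters, the highest count among the members, of which 284 were in the 3'UTR, 112 in introns, 51 in the CDS and 34 in the 5'UTR. YTHDF2 had 194 reads in 3 clusters, with 140 in the CDS, 16 in the 5'UTR and 38 in other annotations. The 3'UTR led on YTHDF1 and the CDS on YTHDF2 in both PAR-CLIPs, while the YTHDF2 3'UTR had no FH-DHX36 cluster.

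The YTHDF1 CDS held 8 G-run matches and the YTHDF2 CDS 3. Pairs at like places of the coding sequence of these paralogs are shown, since short reads from them could resemble each other. From the first base of each match, without gaps, 24 of 27 letters were identical in the first pair and 25 of 29 in the second. A match from the YTHDF1 3'UTR, the region with most reads on that gene, is also given.
YTHDF1 CDS, exon 4, chr20:61834458-61834485: GGacattGGcacctGGGataacaaGGGG
YTHDF2 CDS, exon 4, chr1:29069601-29069627: GGatattGGaacttGGGataacaaGGG
YTHDF1 CDS, exon 4, chr20:61833876-61833905: GGGGtctGGtctcaGGacaagtGGaaGGGG
YTHDF2 CDS, exon 4, chr1:29070232-29070260: GGtgtgtGGtcccaGGacaaatGGaaGGG
YTHDF1 3'UTR, exon 5, chr20:61827390-61827408: GGGctGGatGGtgttGGGG

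Sharing of sequence with other genes was measured over windows of 20 bases. Of the windows in the YTHDF2 CDS, 45.8% also occurred on the sense strand of a transcript of another gene, mainly the pseudogene YTHDF2P1. The same share was 2.41% for the YTHDF1 CDS and 0.863% for the YTHDF3 CDS. For the WTAP CDS it was 26.4%, mainly through ENSG00000232702. The CDS reads on YTHDF2 and WTAP are uncertain to this extent, as reads that map to several places may be lost or split. In the 3'UTRs of the members the share ran from 0% on METTL3 to 8.81% on METTL14. Transcripts on the opposite strand held all windows of the METTL3 3'UTR, mainly through TOX4, and of the YTHDF2 5'UTR, and 29.8% of those in the ALKBH5 CDS. Whether counting used the strand is not given in the sources used here, so that reads of these regions and of the opposite gene may not be told apart.

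YTHDF3 (plus strand, chr8:64081180-64125344, 6 exons) had the most clusters of all members with FH-DHX36-E335A, 32, which placed it at rank 75 of the 9131 genes with a cluster. The 3'UTR had 21 of these clusters and 925 reads, the CDS 9 clusters and 499 reads, and the 5'UTR 2 clusters and 147 reads. At 49.1 reads per cluster, its clusters were shallower than those of ALKBH5, with 158. With FH-DHX36 only 2 clusters were listed on YTHDF3. One held 66 reads in the 5'UTR and the other 43 in the CDS, while the 3'UTR had none. The canonical 3'UTR of 3080 nt held 0 G-run matches, and 1 when spacers of up to 12 bases were allowed. It carried more FH-DHX36-E335A reads than that of any other member but ALKBH5.

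YTHDC1 had no cluster and no reads in either PAR-CLIP. Since the table lists reads only on genes with a cluster, this is not a count of 0 reads in the libraries, and the smallest counts listed for any gene were 6 in the FH-DHX36 columns and 5 in those of the mutant. RNA abundance can be recovered only for genes with a cluster, so that the abundance of YTHDC1 in these cells was not analysed here. Its transcript (minus strand, chr4:69176105-69215808, 17 exons, 3'UTR of 3712 nt) held G-run matches too, of which the 5'UTR had 3 and the CDS and 3'UTR 2 each. Of its 20-base windows, 2.26% of those in the CDS, and of 3'UTR windows 4.31%, occurred in other genes.

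YTHDC2 (plus strand, chr5:112849391-112930981, 30 exons) had 417 reads in 4 clusters with FH-DHX36-E335A, 192 reads from the CDS and 225 from the 3'UTR. With FH-DHX36 it had 22 reads in 1 cluster of the 3'UTR. Its 3'UTR share of exonic FH-DHX36-E335A reads was 54.0% (95% Wilson interval from 49.2% to 58.7%), compared with 28.7% of the transcript length. YTHDC2 is also a DExH helicase, as are DHX36 and DHX9. DHX9 had 3519 FH-DHX36-E335A reads and 371 FH-DHX36 reads, and DHX36, whose CDS is carried by the transgenes, 30909 and 19208.

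Of the erasers, ALKBH5 was found in both PAR-CLIPs and FTO with FH-DHX36-E335A alone. ALKBH5 (plus strand, chr17:18087142-18113268, 4 exons) had 2694 reads in 17 clusters with FH-DHX36-E335A and 434 reads in 7 clusters with FH-DHX36. The 3'UTR held 2154 and 412 of these reads and the CDS 384 and 22. Its 3'UTR share of exonic reads was 84.9% (83.4% to 86.2%) and 94.9% (92.4% to 96.6%), whereas the 3'UTR makes up 49.3% of the transcript. Per length, the ALKBH5 3'UTR had 1383 FH-DHX36-E335A reads per kb, the highest of the members' 3'UTRs. The 3 G-run matches of this 3'UTR are shown because it had the most reads per kb among the members' 3'UTRs.
ALKBH5 3'UTR, exon 4, chr17:18111925-18111942: GGatGGaaaGGctgttGG
ALKBH5 3'UTR, exon 4, chr17:18112804-18112826: GGGtatGGGagttGGtgaaGGGG
ALKBH5 3'UTR, exon 4, chr17:18112890-18112911: GGaaGGcagcaaGGttttgtGG

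FTO (plus strand, chr16:53738068-54155853, 9 exons) had 92 reads in 4 clusters with FH-DHX36-E335A, 72 from the CDS and 20 from the 3'UTR, and no FH-DHX36 cluster. Its share of reads would have given 22.7 reads with FH-DHX36, and 32.4% of 836 genes with a read count within 25% of its own had an FH-DHX36 cluster. The canonical 3'UTR of FTO is 10026 nt long and held 20 G-run matches, 1 cluster and 1.99 reads per kb. Its density of 1.99 matches per kb was close to that of the ALKBH5 3'UTR, with 1.93. All canonical 3'UTRs held 1.71 per kb. Across the members the number did not follow length alone, as METTL14 held 4 matches in 5128 nt and YTHDF3 0 in 3080 nt. Which 3'UTR of FTO is used in these cells was not tested. Of the matches in this 3'UTR, 3 from exon 9 are shown as examples from a long 3'UTR with few reads.
FTO 3'UTR, exon 9, chr16:54149449-54149474: GGctgtGGGGaaGGGaGGtGGttGGG
FTO 3'UTR, exon 9, chr16:54150526-54150551: GGatGGGtGGGaGGaGGGGaagccGG
FTO 3'UTR, exon 9, chr16:54155640-54155659: GGtGGGGcatGGGGtGGGGG

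Over the whole group, the 31 G-run matches of the 3'UTRs fell on 5 of 10 members, compared with 64.8% of all 19010 canonical 3'UTRs and 71.7% of those with an FH-DHX36-E335A cluster. The density was 1.10 per kb, beside 1.71 per kb in all canonical 3'UTRs. METTL3, WTAP, YTHDF2, YTHDF3 and YTHDC2 had no match in the 3'UTR, although each had FH-DHX36-E335A reads there, from 18 on METTL3 to 925 on YTHDF3. In the 5'UTR 8 of 10 members held a match, beside 53.8% of all 5'UTRs and 63.3% of those with an FH-DHX36-E335A cluster. In the CDS it was 10 of 10, beside 84.5% and 86.1%. The median 5'UTR length was 204 nt on the members and 136 nt over all canonical transcripts. With runs of at least 3 G, the only match on the members was in the 5'UTR of ALKBH5, where no cluster was listed. Such a match was held by 6.85% of all 5'UTRs and by 8.86% of those with an FH-DHX36-E335A cluster. In 3'UTRs it was none of the members, beside 14.2% of all canonical 3'UTRs.

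**Figure D2:**
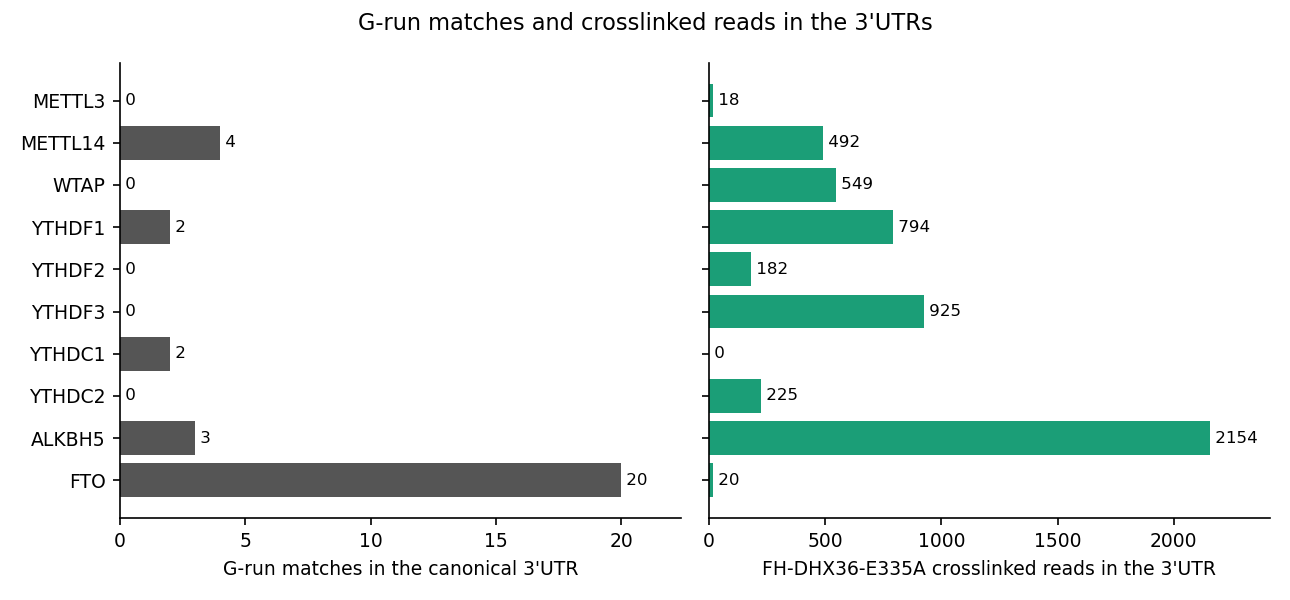
Number of G-run matches in the canonical 3'UTR (left, x axis) and FH-DHX36-E335A crosslinked reads in the 3'UTR (right, x axis) for the 10 m6A factor genes. FTO combined 20 matches with 20 reads, whereas YTHDF3 had 0 matches and 925 reads, and ALKBH5 3 matches and 2154 reads.

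By region, the 3'UTRs held 5359 of the 8872 exonic FH-DHX36-E335A reads on the members, or 60.4% (95% Wilson interval from 59.4% to 61.4%), and the CDS 34.0%. Over all genes these shares were 71.9% and 22.9%. With FH-DHX36 the 3'UTR share of pooled reads was 60.0% (57.2% to 62.6%) on the members and 51.4% over all genes. The median of the shares of the 7 members was 26.3%, and no such median was taken over all genes. Summed lengths of the members found would give 57.3% and 49.2%. These pooled values rest on few genes. ALKBH5 alone held 412 of the 753 FH-DHX36 reads in 3'UTRs. The 3'UTR was the exonic region with the most FH-DHX36-E335A reads on 6 of 9 members, beside 65.0% of all genes, and with the most FH-DHX36 reads on 3 of 7, beside 48.3%.

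The leading exonic region differed between the PAR-CLIPs on 3 of 7 mRNAs found in both, beside 28.2% of all such genes. On METTL14 it was the CDS with FH-DHX36 and the 3'UTR with FH-DHX36-E335A, and on WTAP and YTHDF3 the 5'UTR with FH-DHX36 and the 3'UTR with FH-DHX36-E335A. On YTHDF1, YTHDC2 and ALKBH5 the 3'UTR led in both, and on YTHDF2 the CDS. On WTAP the FH-DHX36-E335A difference between the 3'UTR, with 549 reads, and the CDS, with 538, was within counting error. The FH-DHX36 values of METTL14 and YTHDF3 rest on 1 and 2 clusters.

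NXPM reordered the members. With FH-DHX36-E335A, YTHDF3 had the highest NXPM, 54.5, followed by METTL14 with 41.8. YTHDF2 with 10.4, YTHDC2 with 10.3, YTHDF1 with 10.3 and ALKBH5 with 9.47 were close to each other, and WTAP with 5.18, FTO with 2.42 and METTL3 with 0.783 were lower. The median of the 9 mRNAs was 10.3, beside 5.66 for all genes with a cluster. YTHDF3 stood at rank 935 and METTL14 at rank 1231 of 9131 genes, and METTL3 at rank 7715.

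With FH-DHX36, NXPM was 21.2 for YTHDF1, 15.3 for YTHDF3, 8.21 for METTL14, 6.18 for ALKBH5, 5.08 for YTHDF2, 3.07 for WTAP and 2.21 for YTHDC2. The median of these 7 mRNAs was 6.18, beside 7.84 for all genes with a cluster. The recovered RNA abundance was 3.29 for YTHDF3 and 1.86 for METTL14, compared with 32.5 for ALKBH5, 35.4 for WTAP and 23.5 for METTL3, but FTO with 4.34 and YTHDC2 with 4.61 were also low without a high NXPM, in the authors' abundance units, whose scale is not given in the sources used here. NXPM is not divided by transcript length. Per kb of canonical transcript, the FH-DHX36-E335A NXPM was 10.7 for YTHDF3 and 6.29 for METTL14, from 1.64 to 3.80 for YTHDF1, YTHDF2, YTHDC2, ALKBH5 and WTAP, 0.395 for METTL3 and 0.209 for FTO. YTHDF3 and METTL14 were thus also first by this measure.

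NXPM of a single region divides by the reads that this region has over all genes, and gave another order. In the 5'UTR YTHDF3 had an NXPM of 132 for the mutant and 116 for FH-DHX36, and YTHDF2 had 58.5 and 5.25. In the CDS the highest FH-DHX36-E335A values were 102 for YTHDF3, 68.2 for METTL14 and 38.2 for YTHDF2, and in the 3'UTR 60.2 for YTHDF3 and 56.7 for METTL14. The intronic NXPM of WTAP was 30.2 for the mutant and 15.7 for FH-DHX36, and that of YTHDF1 was 58.1 for FH-DHX36.

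**Figure D3:**
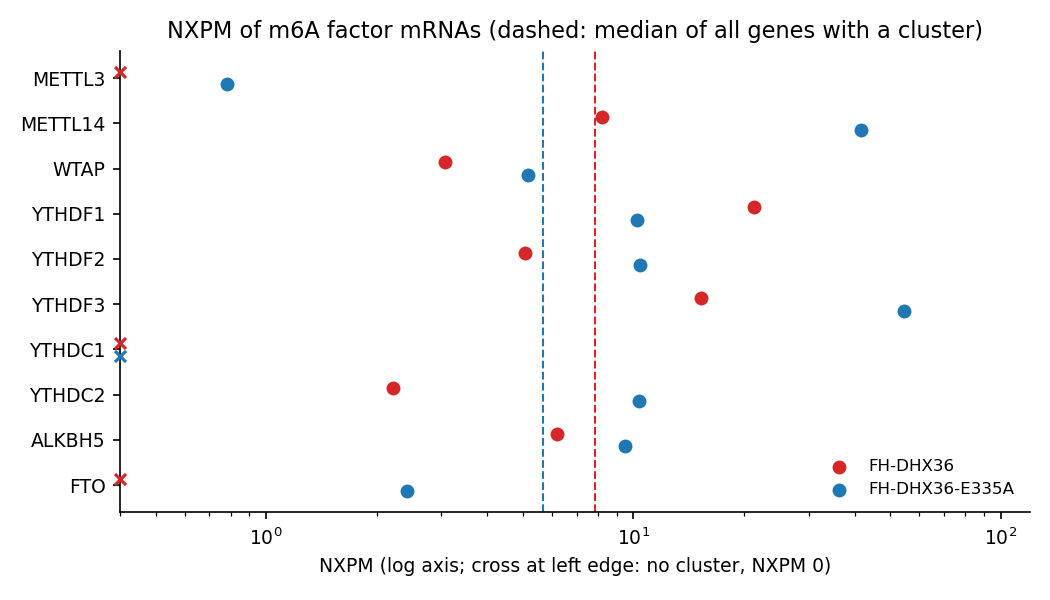
NXPM (x axis, log scale) of the 10 m6A factor genes for FH-DHX36 in red and for the E335A mutant in blue, with crosses at the left edge for genes without a cluster and dashed lines at the median of all genes with a cluster, 7.84 and 5.66. YTHDF3 and METTL14 had the highest FH-DHX36-E335A values, and YTHDF1 was the only member with a higher value with FH-DHX36.

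Between the PAR-CLIPs, the share of crosslinked reads was compared for the 7 mRNAs with clusters in both. This ratio equals the ratio of NXPM, as both are divided by the same abundance. METTL14 had 15.3 RPM with FH-DHX36 compared with 77.7 RPM for the mutant, a ratio of 5.09 (95% exact binomial interval from 3.59 to 7.45). YTHDC2 had 10.2 and 47.6, a ratio of 4.68 (3.05 to 7.55), and YTHDF3 50.5 and 179, a ratio of 3.56 (2.93 to 4.36). The ratio was 2.06 for YTHDF2 (1.77 to 2.40), 1.68 for WTAP (1.47 to 1.94) and 1.53 for ALKBH5 (1.38 to 1.70). YTHDF1 went the other way, from 223 RPM with FH-DHX36 to 108 with FH-DHX36-E335A, so that its share was 2.07 times higher with FH-DHX36.

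A share at least 2 times higher with FH-DHX36-E335A was thus seen for 4 of 7 mRNAs, beside 28.6% of the 5669 genes with clusters in both, and a share at least 2 times higher with FH-DHX36 for 1 of 7, beside 24.8%. The median ratio of these genes was 1.09, and relative to this median YTHDF2 was under 2-fold. When cluster numbers were used in place of reads, METTL14 (log2 ratio 0.74), YTHDF2 (0.48), YTHDC2 (0.15) and YTHDF1 (-0.73) were all under 2-fold, and YTHDF3 (2.15) alone was past it. With exonic reads 5 mRNAs were at least 2 times higher with FH-DHX36-E335A, WTAP being added, beside 28.8% of 4867 genes. In favor of FH-DHX36 it was 0, beside 27.8%. The ratio moved with the FH-DHX36 read count, and its part in these differences was not tested. Of 653 genes with an FH-DHX36 count within 25% of that of METTL14, 50.2% were at least 2 times higher with FH-DHX36-E335A, and the same held for 56.6% of 459 genes near YTHDC2 and for 29.3% of 805 genes near YTHDF3. Near YTHDF2 the share was 21.2% of 782 genes, below that over all genes. Near YTHDF1, 33.8% of 520 genes were at least 2 times higher with FH-DHX36.

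**Figure D4:**
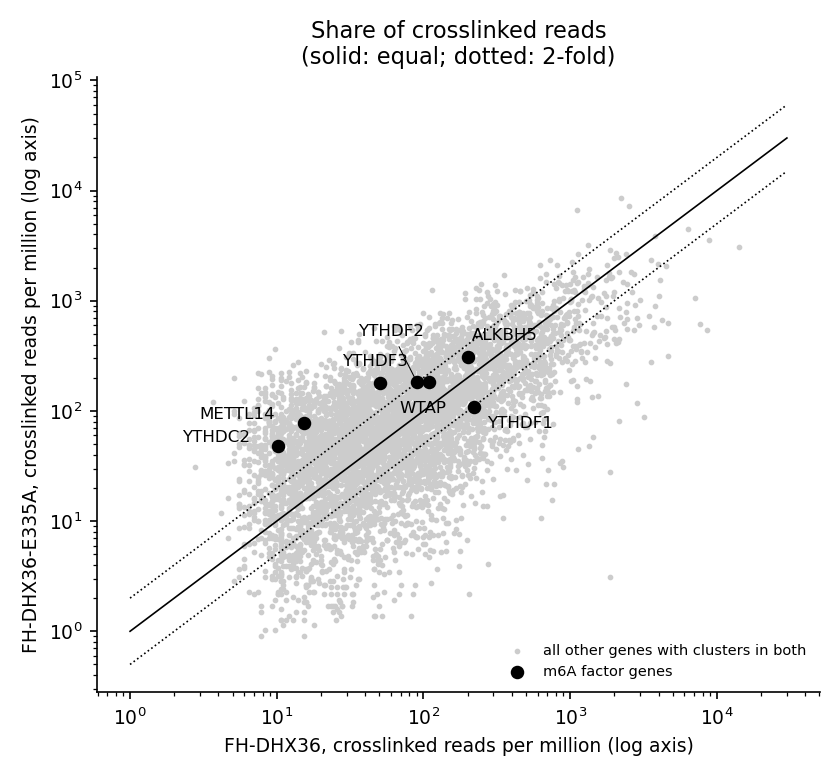
Crosslinked reads in RPM with FH-DHX36 (x axis, log scale) and FH-DHX36-E335A (y axis, log scale) for the genes with clusters in both PAR-CLIPs, in grey, and for the 7 m6A factor genes among them, in black, with a solid line at equal shares and dotted lines at 2-fold. METTL14, YTHDC2 and YTHDF3 lie above the upper dotted line, YTHDF2 on it with a ratio of 2.06, and YTHDF1 at the lower one.

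Of 20 other genes of the pathway, 18 had an FH-DHX36-E335A cluster, beside 34.5% of all listed genes, and 15 an FH-DHX36 cluster, beside 22.4%. Among identifiers placed on a protein-coding gene these shares were 48.1% and 31.2%. The list was made of further writer subunits, other methyltransferases, other readers and MAT2A, which makes the methyl donor S-adenosylmethionine. The 5 with the most FH-DHX36-E335A reads were HNRNPA2B1, a nuclear RNA-binding protein described as a reader, with 26851 reads, IGF2BP1, a reader that stabilizes mRNAs, with 5038, CBLL1, a subunit of the writer complex, with 4768, RBM15, which recruits that complex, with 2017, and ELAVL1, which binds AU-rich elements, with 1741. With FH-DHX36 these had 30421, 4288, 609, 838 and 211 reads. On HNRNPA2B1, 85.2% of FH-DHX36 reads and 81.5% of FH-DHX36-E335A reads had an annotation other than the 5'UTR, CDS, 3'UTR or introns. RBM15B, a paralog of RBM15, and FMR1, an RNA-binding translational regulator, had no cluster in either PAR-CLIP, as seen for YTHDC1.

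Within this list, 5 of 15 genes with clusters in both had a share of reads at least 2 times higher with FH-DHX36-E335A, beside 28.6% of all genes, and 3 of 15 a share at least 2 times higher with FH-DHX36, beside 24.8%. The share was higher with FH-DHX36-E335A by 7.60 times for METTL16, 6.68 times for METTL5, 3.16 times for ZC3H13, 2.97 times for IGF2BP3 and 2.04 times for ELAVL1. HNRNPA2B1 was 4.59 times and IGF2BP1 3.45 times higher with FH-DHX36, and IGF2BP2 2.42 times. Together the list held 17372 RPM with FH-DHX36 compared with 5438 RPM for the mutant, mostly on HNRNPA2B1, while the members held 698 and 1117.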

How the data were processed

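Per the labels and the methods of the paper, reads were mapped by the authors to hg19, clusters were called with PARalyzer within PARpipe at default settings and annotated with GENCODE v19, and 2 replicates were made per cell line. The submitters' processing notes name bcl2fastq 2.17.1. The deposited cluster and crosslinked read counts are whole numbers that the authors did not normalize, and NXPM, a normalized score, was deposited as crosslinked reads per 1000000 (RPM) divided by RNA abundance. 82 identifiers were listed repeatedly, none of them a member.

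RNA abundance was recovered as RPM over NXPM, minus 0.001. For the 5646 genes compared, both PAR-CLIPs gave values within 1% of each other. Region lengths, G-run matches and 20-base windows were taken from GENCODE 44 canonical protein-coding transcripts lifted to GRCh37, the build of hg19, and member sequences were checked against the genome. Identifiers were matched by symbol or older symbol. Intervals are Wilson, exact binomial or exact Poisson at 95%. PCR copies are not independent molecules. Python 3.11.15, pandas 2.3.3 and scipy 1.17.1 were used. The recovery of abundance, 2-fold calls scaled to the median ratio and the G-run search were tested on simulated data. Those calls were simulated only for genes with more FH-DHX36 reads than METTL14 and YTHDC2 had. The unscaled calls, the intervals and the 20-base windows were not tested in this way. With 1 value per cell line, no test was run. The members and the list of other pathway genes were chosen with earlier results of these data known. All 10 members are named, and of the other pathway genes the 5 with the most FH-DHX36-E335A reads and those without a cluster in either. The rest of that list is given by counts, except that METTL16, METTL5, ZC3H13, IGF2BP2 and IGF2BP3 were named after their values were seen.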

Additional observations from a re-analysis of the deposited data

How the results depend on the processing

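No paired analysis was possible because the table gives 1 value per cell line, and leaving out a replicate was not run for the same reason. Of 44 alternatives, 22 kept the value within its interval or within 1.5 times the count, and none of the ratios past 2-fold changed sign. The numbers of members with a cluster were among those kept under these limits. That includes the change to 5 members of 7 when at least 2 FH-DHX36 clusters were asked for. Over all 5930 genes with an FH-DHX36 cluster, those with 1 cluster began at rank 3361 by number of clusters. With exonic reads and totals, or with a fold of 3, 0 members were past the threshold in favor of FH-DHX36. Over all genes these shares were 27.8% and 15.3%. The log2 ratio of YTHDF1 was -0.71, that of WTAP 1.03 and that of YTHDF2 1.29 with exonic reads. From cluster numbers in place of reads, the log2 ratio was 0.74 for METTL14, 0.15 for WTAP and YTHDC2, -0.73 for YTHDF1, 0.48 for YTHDF2, 2.15 for YTHDF3 and -0.57 for ALKBH5, which was under 2-fold and on the other side of 0. The 3'UTR share with FH-DHX36-E335A was 58.7% of exonic clusters, 54.0% as the median over members and 54.8% of all reads. With FH-DHX36 it was 52.4%, 26.3% and 49.9%. With members lacking a cluster at 0, the median NXPM was 9.86 and 4.07. The 3'UTRs held 0 matches with runs of at least 3 G, and 47 with spacers of up to 12. The cause was not tested. Low counts, such as the 22 FH-DHX36 reads on YTHDC2, widen the intervals of the ratios, and the spread between replicates is unknown.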
